A study of Homo sapiens with 12 samples.

Results

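The 10 human genes described here turn intracellular proteins into peptides and load them on MHC class I: PSMB8, PSMB9, PSMB10, PSME1, PSME2, TAP1, TAP2, TAPBP, ERAP1 and ERAP2. They were chosen by name, with earlier results of these data known, and followed across 4 groups of BT549 cells. Each had at least 1 probe set that the probe table gives to a single gene symbol, and a gene with several was read from its brightest one (by its mean on the 12 arrays). They are 10 of 17958 genes measured in this way.

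BT549 is a breast cancer line without oestrogen and progesterone receptors or amplified HER2. Labelled cDNA from total RNA was hybridised to Affymetrix human gene arrays. Each value is a log2 level of 1 probe set on 1 array, with the base inferred from the range of the values. The first group was transfected with pooled c-Jun siRNAs, kept for 72 hours, and given TNFα for 6 hours. The second had the same c-Jun siRNAs and vehicle. The third was transfected with control siRNA for 72 hours and given TNFα for 6 hours, and the fourth had control siRNA and vehicle. There were 3 arrays a group. All cells were thus transfected, 1 siRNA pool stands for the loss of c-Jun, and nothing says that the 3 samples of a group were separate cultures, so p-values describe only the spread among the samples at hand. In RNA from whole cultures, fewer cells that express a gene and less RNA per cell cannot be told apart.

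The proteasome is the barrel-shaped protease that cuts ubiquitinated proteins into peptides. Under inflammatory cytokines its catalytic subunits can be replaced by PSMB8, PSMB9 and PSMB10, which gives the immunoproteasome, and PSME1 and PSME2 together form the PA28 cap that opens the barrel. TAP1 and TAP2 form the transporter that carries peptides into the endoplasmic reticulum, the aminopeptidases ERAP1 and ERAP2 trim them there, and tapasin, encoded by TAPBP, holds the transporter beside empty class I molecules. Many of these genes are known targets of interferon signalling through IRF1, and several also of NF-kB.

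Most of the genes share a sequence feature. Sequences were not used in the choice by name. Many of the genes were already known targets of interferon signalling, however, so the shares over all genes or windows give scale only. The interferon-stimulated response element (ISRE), which IRF1 binds, was searched as a pair of GAAA separated by any 2 bases, on both strands of RefSeq promoter windows (GRCh38.p14). A window runs from 250 bases before to 50 bases after an annotated start. A match lay in a window of 9 of the 10 genes and in 9 of their 14 windows, while 4.38% of all genes with a window and 3.57% of all 35116 windows had one. The matched stretches of 30 bases are printed 5′ to 3′ on the strand of the gene, with the matches in capitals, because this element is what most of the genes have in common.
PSMB8, chr6:32844032-32844061, minus strand: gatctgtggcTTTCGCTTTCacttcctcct
PSMB10, chr16:67936852-67936881, minus strand: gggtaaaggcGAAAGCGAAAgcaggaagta
PSME1, chr14:24136189-24136218, plus strand: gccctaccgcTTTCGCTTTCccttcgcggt
PSME2, chr14:24146619-24146648, minus strand: cctggggagtGAAAGCGAAAgcccgggcga
TAP1, chr6:32853816-32853845, minus strand: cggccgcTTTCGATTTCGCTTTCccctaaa
TAP2, chr6:32838778-32838807, minus strand: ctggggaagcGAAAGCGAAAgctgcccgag
TAPBP, chr6:33314076-33314105, minus strand: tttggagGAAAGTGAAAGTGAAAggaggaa
ERAP1, chr5:96807924-96807953, minus strand: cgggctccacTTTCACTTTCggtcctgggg
ERAP2, chr5:96876460-96876489, plus strand: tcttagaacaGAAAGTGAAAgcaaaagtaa

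TAP1 and TAPBP each hold 2 overlapping matches, printed as 1 run. Counted from the annotated start, the match begins at -134 in TAP1 and between -58 and 5 in the other genes. The second annotated starts of TAP1 and ERAP1, and the first of PSMB8 and ERAP2, had no match.

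PSMB9 had no match in its own window, but its start lies 488 bases from that of TAP1, on the opposite strand, so that both genes read outwards from 1 shared stretch. In the RefSeq gene table TAP2, PSMB8, TAP1 and PSMB9 follow each other on chromosome 6, with the antisense transcript PSMB8-AS1 listed between PSMB8 and TAP1. The 250 bases before each start are printed because this pair had the largest TNFα responses of the 10 genes under control siRNA. Capitals mark the ISRE matches and a match to the NF-kB consensus, both in TAP1, and the windows of the pair overlap by 13 bases.
TAP1, chr6:32853705-32853954, minus strand: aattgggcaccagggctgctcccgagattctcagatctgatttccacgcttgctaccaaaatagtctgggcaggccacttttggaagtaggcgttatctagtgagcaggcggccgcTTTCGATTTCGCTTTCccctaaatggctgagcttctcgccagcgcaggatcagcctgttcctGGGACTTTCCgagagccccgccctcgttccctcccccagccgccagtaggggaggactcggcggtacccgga
PSMB9, chr6:32853942-32854191, plus strand: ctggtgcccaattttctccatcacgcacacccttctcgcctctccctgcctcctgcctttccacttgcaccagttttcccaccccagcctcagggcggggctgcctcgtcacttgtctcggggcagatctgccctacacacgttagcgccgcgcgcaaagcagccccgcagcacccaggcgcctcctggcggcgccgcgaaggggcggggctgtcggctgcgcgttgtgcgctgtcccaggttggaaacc

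The NF-kB consensus was matched in windows of TAP1, TAPBP and ERAP1, 3 of the 10 genes, against 13.3% of all genes with a window. The AP-1 motif TGANTCA and the related cAMP response element TGACGTCA were matched in 0 of their 14 windows, against 7.71% and 1.85% of all windows. The GAS motif TTCNNNGAA was matched in windows of TAP1 and PSMB8, against 9.38% of all genes with a window. A match describes these letters only, and no match says only that the letters are not in this window.

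**Figure D1:**
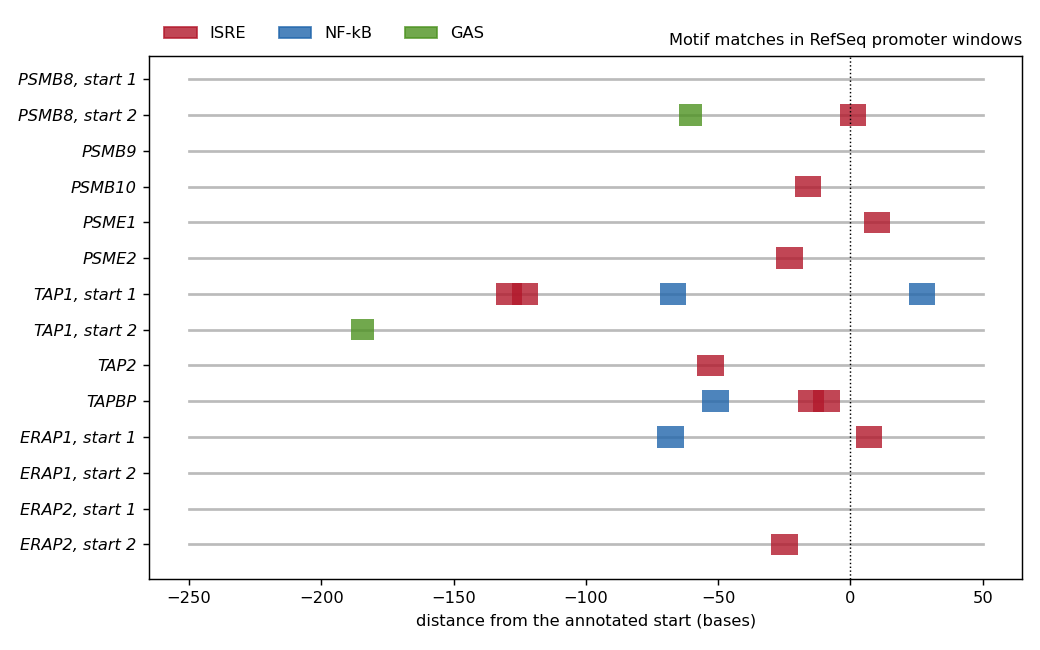
Matches to the ISRE, the NF-kB consensus and the GAS motif in each RefSeq promoter window, with the distance from the annotated start in bases on the x axis and 1 line for each annotated start of a gene. ISRE matches lie in windows of 9 of the 10 genes, from -58 onwards in all of these but TAP1.

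JUN, the target of the siRNA, was checked first. Its mean log2 level was 10.36 with c-Jun siRNA and TNFα, 9.83 with c-Jun siRNA and vehicle, 11.07 with control siRNA and TNFα and 10.35 with control siRNA and vehicle. The log2 fold change for c-Jun siRNA over control siRNA was -0.71 ± 0.032 under TNFα and -0.52 ± 0.032 under vehicle (SE), so JUN mRNA was lowered but remained. Array medians of all probe sets lay between 5.62 and 5.68, and precision is limited by the 3 arrays a group. The name of c-Jun siRNA TNFα replicate 3 reads as a second run of the extract of replicate 1, and averaging these arrays into 1 sample changed no call on the 10 genes. The mesenchymal genes VIM, FN1, CDH2 and ZEB1 averaged 9.78 to 12.66 over the 12 arrays. Of 6 epithelial and luminal markers CDH1, EPCAM, ESR1 and PGR averaged 3.72 to 4.87, below every array median, while KRT8 (6.03) and ERBB2 (8.81) lay above. Of 8 leukocyte markers 7 averaged below every array median, PTPRC at 3.81 and CD3E at 3.97, and CD68, which many tumour lines also express, was at 9.58.

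The immunoproteasome subunits were higher with TNFα and also with c-Jun siRNA alone. PSMB9, which replaces PSMB6, stood at 9.46, 9.53 and 9.48 with c-Jun siRNA and TNFα, and at 8.28, 8.50 and 8.28 with c-Jun siRNA and vehicle (log2 levels, as are those that follow). With control siRNA it stood at 8.66, 8.70 and 8.68 under TNFα, and at 6.50, 6.46 and 6.58 under vehicle. None of the 4 groups overlapped another. TNFα raised PSMB9 by 1.14 ± 0.057 with c-Jun siRNA (2.20-fold) and by 2.16 ± 0.057 with control siRNA (4.47-fold; log2 fold change and its SE, n = 3 arrays a group). The knockdown raised it by 0.81 ± 0.057 under TNFα (1.76-fold, limma adjusted p = 3.27e-09) and by 1.84 ± 0.057 under vehicle (3.58-fold). Both of these were the largest knockdown effects among the 10 genes.

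PSMB8, which replaces PSMB5, was at 8.20, 8.10 and 8.30 with c-Jun siRNA and TNFα, and at 7.34, 7.32 and 7.40 with c-Jun siRNA and vehicle. Under control siRNA it was at 7.91, 7.78 and 7.84 with TNFα and at 6.49, 6.47 and 6.44 with vehicle. The 4 groups were again apart, and knocked-down cells given vehicle lay below control cells given TNFα. The log2 fold change with TNFα was 0.85 ± 0.060 in knocked-down cells and 1.38 ± 0.060 in control cells. The knockdown raised PSMB8 by 0.36 ± 0.060 under TNFα (limma adjusted p = 0.000134) and by 0.89 ± 0.060 under vehicle.

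PSMB10, which replaces PSMB7, changed more with TNFα than with the knockdown. It was at 8.72, 8.78 and 9.0 with c-Jun siRNA and TNFα, and at 7.37, 7.51 and 7.32 with c-Jun siRNA and vehicle. In control siRNA cells it was at 8.56, 8.47 and 8.60 under TNFα and at 6.95, 6.73 and 6.84 under vehicle. The groups did not overlap. TNFα raised it by 1.44 ± 0.075 in knocked-down cells and 1.70 ± 0.075 in control cells, and the knockdown raised it by 0.29 ± 0.075 under TNFα (limma adjusted p = 0.00601) and 0.56 ± 0.075 under vehicle.

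The constitutive subunits that these replace changed little. PSMB5, PSMB6 and PSMB7 had log2 fold changes with TNFα of -0.09 to 0.03 in knocked-down cells, with PSMB5 called lower, and of -0.07 to 0.04 in control cells, with 0 of 3 called by limma. The unadjusted limma value of PSMB5 alone was under 0.05 in control cells. The knockdown gave 0.04 to 0.08 under TNFα, with 0 of 3 called (unadjusted under 0.05 for PSMB5 at 0.08). It gave 0.05 to 0.10 under vehicle, with PSMB5 and PSMB6 called higher. Over all genes, the knockdown gave 14.1% called higher under TNFα and 14.4% under vehicle. With TNFα 11.3% were called higher in knocked-down cells, where 61.7% of the 5320 calls were lower, and 13.8% in control cells. Each immunoproteasome subunit was then set against its counterpart within arrays.

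The change of PSMB9 minus PSMB6 with TNFα was 1.15 ± 0.073 with c-Jun siRNA and 2.15 ± 0.037 with control siRNA (log2, SE, n = 3 arrays a group). For PSMB10 minus PSMB7 it was 1.41 ± 0.12 and 1.66 ± 0.052, and for PSMB8 minus PSMB5 0.95 ± 0.043 and 1.45 ± 0.016, again with c-Jun siRNA first. The PSMB10 pair thus had the largest mean change in knocked-down cells and the PSMB9 pair in control cells, and this difference in order was not tested. The knockdown changed PSMB9 minus PSMB6 by 0.75 ± 0.039 under TNFα and 1.75 ± 0.071 under vehicle. It changed PSMB8 minus PSMB5 by 0.28 ± 0.045 and 0.79 ± 0.0092, and PSMB10 minus PSMB7 by 0.25 ± 0.10 and 0.51 ± 0.078, with TNFα given before vehicle. In all 12 of these comparisons the arrays of the 2 groups were apart. The two-sided exact permutation test gave p = 0.1 for each, and 0.1 after Benjamini-Hochberg adjustment over the 12, which is the smallest p that 3 arrays against 3 can give.

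**Figure D2:**
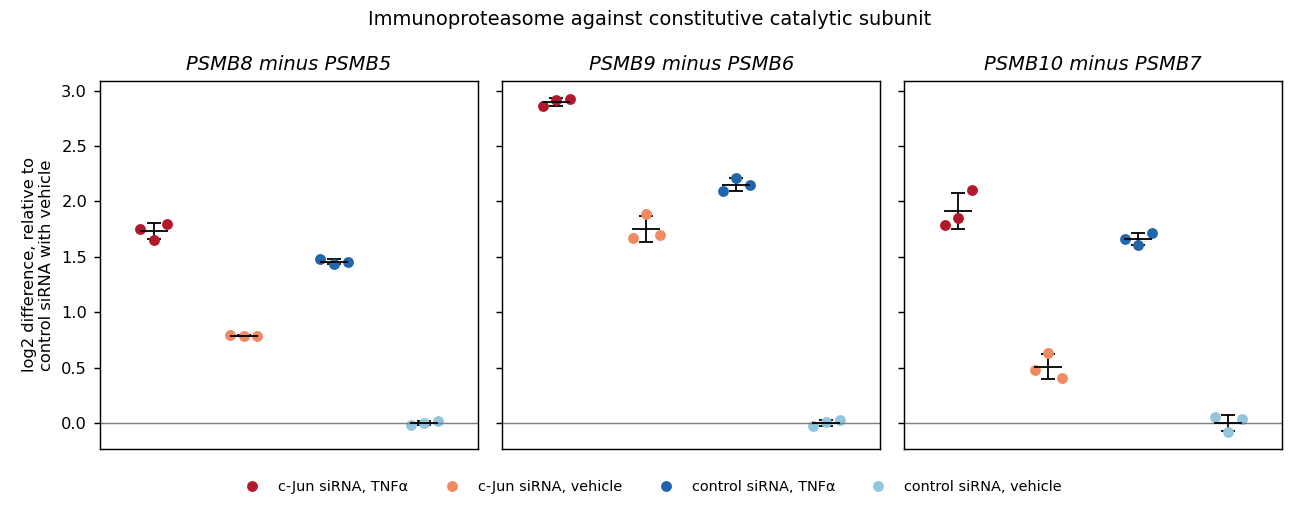
Log2 difference between each immunoproteasome subunit and the constitutive subunit it replaces, per array, set to 0 at the mean of control siRNA with vehicle; points are arrays and bars the mean and SD of 3. In the PSMB9 pair c-Jun siRNA with vehicle reaches 1.75, against 2.15 for control siRNA with TNFα.

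The genes of the PA28 cap changed less. PSME2 was at 11.71, 11.50 and 11.50 with c-Jun siRNA and TNFα, and at 11.11, 11.14 and 11.05 with c-Jun siRNA and vehicle. Its levels under control siRNA were 11.50, 11.31 and 11.43 with TNFα and 10.48, 10.53 and 10.66 with vehicle. The siRNA groups were apart under vehicle and overlapped under TNFα. TNFα raised PSME2 by 0.47 ± 0.057 in knocked-down cells and 0.86 ± 0.057 in control cells. The knockdown raised it by 0.55 ± 0.057 under vehicle, and its value of 0.16 ± 0.057 under TNFα missed the threshold (limma adjusted p = 0.0507). That value passed in 12 of 31 alternative analyses, among them those without control siRNA TNFα replicate 1 (0.20, adjusted p = 0.0227) and without c-Jun siRNA TNFα replicate 2 (0.19, 0.0336) or 3 (0.19, 0.0374). It also passed without control siRNA vehicle replicate 1 (0.16, adjusted p = 0.049) or 3 (0.16, 0.0386).

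PSME1 spanned only 10.85 to 11.30 over the 12 arrays, yet its 4 groups did not overlap. TNFα raised it by 0.27 ± 0.029 in knocked-down cells and 0.31 ± 0.029 in control cells. The knockdown raised it by 0.10 ± 0.029 under TNFα and 0.14 ± 0.029 under vehicle. The call under TNFα (limma adjusted p = 0.0138) held in 25 of 31 alternative analyses. It ended without control siRNA TNFα replicate 2 (0.09, limma adjusted p = 0.0575) and without a trend in the variance (0.10, limma adjusted p = 0.063). Stricter thresholds (adjusted p under 0.01, or 1.5-fold) and fits within array position columns, described below, ended it as well.

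TAP1 had the largest TNFα response of the 10 genes under either siRNA. Its levels were 11.71, 11.68 and 11.70 with c-Jun siRNA and TNFα, and 9.87, 9.97 and 9.97 with c-Jun siRNA and vehicle. Control siRNA cells held 11.53, 11.52 and 11.49 under TNFα and 8.37, 8.33 and 8.35 under vehicle. All 4 groups were apart. The response to TNFα was 1.76 ± 0.033 with c-Jun siRNA (3.38-fold) and 3.16 ± 0.033 with control siRNA (8.96-fold). The knockdown raised TAP1 by 0.18 ± 0.033 under TNFα (1.13-fold, limma adjusted p = 0.000336) and by 1.59 ± 0.033 under vehicle (3.00-fold). Its 3 probe sets held identical values and count as 1 measurement, as did the 3 of PSMB8 and the 3 of PSMB9.

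TAP2, its partner in the transporter, was at 10.32, 10.44 and 10.23 with c-Jun siRNA and TNFα, and at 9.32, 9.41 and 9.34 with c-Jun siRNA and vehicle. Cells with control siRNA had 10.27, 10.20 and 10.24 under TNFα and 8.51, 8.57 and 8.49 under vehicle. The siRNA groups overlapped under TNFα and were apart under vehicle. TNFα raised TAP2 by 0.98 ± 0.048 in knocked-down cells and 1.72 ± 0.048 in control cells. The knockdown raised it by 0.83 ± 0.048 under vehicle, and the value under TNFα was 0.09 ± 0.048 (limma adjusted p = 0.167). That value depended on single arrays: it was 0.04 without c-Jun siRNA TNFα replicate 2 (limma adjusted p = 0.631) and passed at 0.14 without replicate 3 (limma adjusted p = 0.0346). Its other probe sets gave TNFα responses in control cells of 1.73 and 1.69.

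TAPBP was at 12.59, 12.43 and 12.52 with c-Jun siRNA and TNFα, and at 12.11, 12.02 and 12.03 with c-Jun siRNA and vehicle. In cells with control siRNA it was at 12.51, 12.49 and 12.49 under TNFα and at 11.77, 11.77 and 11.66 under vehicle. As for TAP2, the siRNA groups overlapped under TNFα only. TNFα raised TAPBP by 0.46 ± 0.039 in knocked-down cells and 0.77 ± 0.039 in control cells, and the knockdown raised it by 0.32 ± 0.039 under vehicle. Under TNFα the difference was 0.02 ± 0.039 (limma adjusted p = 0.824), and its sign varied with the processing. The other probe sets of TAPBP gave 0.047 and -0.015 for this difference, and TNFα responses in control cells of 0.79 and 0.83.

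The trimming enzymes differed from each other. ERAP1 was at 10.79, 10.76 and 10.78 with c-Jun siRNA and TNFα, and at 9.89, 9.88 and 9.93 with c-Jun siRNA and vehicle. In control siRNA cells it was at 10.42, 10.37 and 10.39 under TNFα and at 8.72, 8.85 and 8.76 under vehicle. All groups were apart. TNFα raised ERAP1 by 0.87 ± 0.037 in knocked-down cells and 1.62 ± 0.037 in control cells. The knockdown raised it by 0.38 ± 0.037 under TNFα (limma adjusted p = 2.63e-07) and 1.13 ± 0.037 under vehicle.

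ERAP2 was at 6.37, 6.22 and 6.28 with c-Jun siRNA and TNFα, and at 5.25, 5.15 and 5.43 with c-Jun siRNA and vehicle. Under control siRNA it was at 6.45, 6.58 and 6.38 with TNFα and at 5.20, 5.18 and 5.29 with vehicle. The TNFα arrays were above the vehicle arrays throughout, and under vehicle the siRNA groups overlapped. TNFα raised ERAP2 by 1.01 ± 0.084 in knocked-down cells and by 1.25 ± 0.084 in control cells. Under TNFα all c-Jun siRNA arrays lay below the control siRNA arrays, but the difference of -0.18 ± 0.084 did not pass (limma adjusted p = 0.134). Under vehicle it was 0.06 ± 0.084 (limma adjusted p = 0.713), with a sign that varied with the processing. ERAP2 was dim, with both vehicle groups below the array medians.

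**Figure D3:**
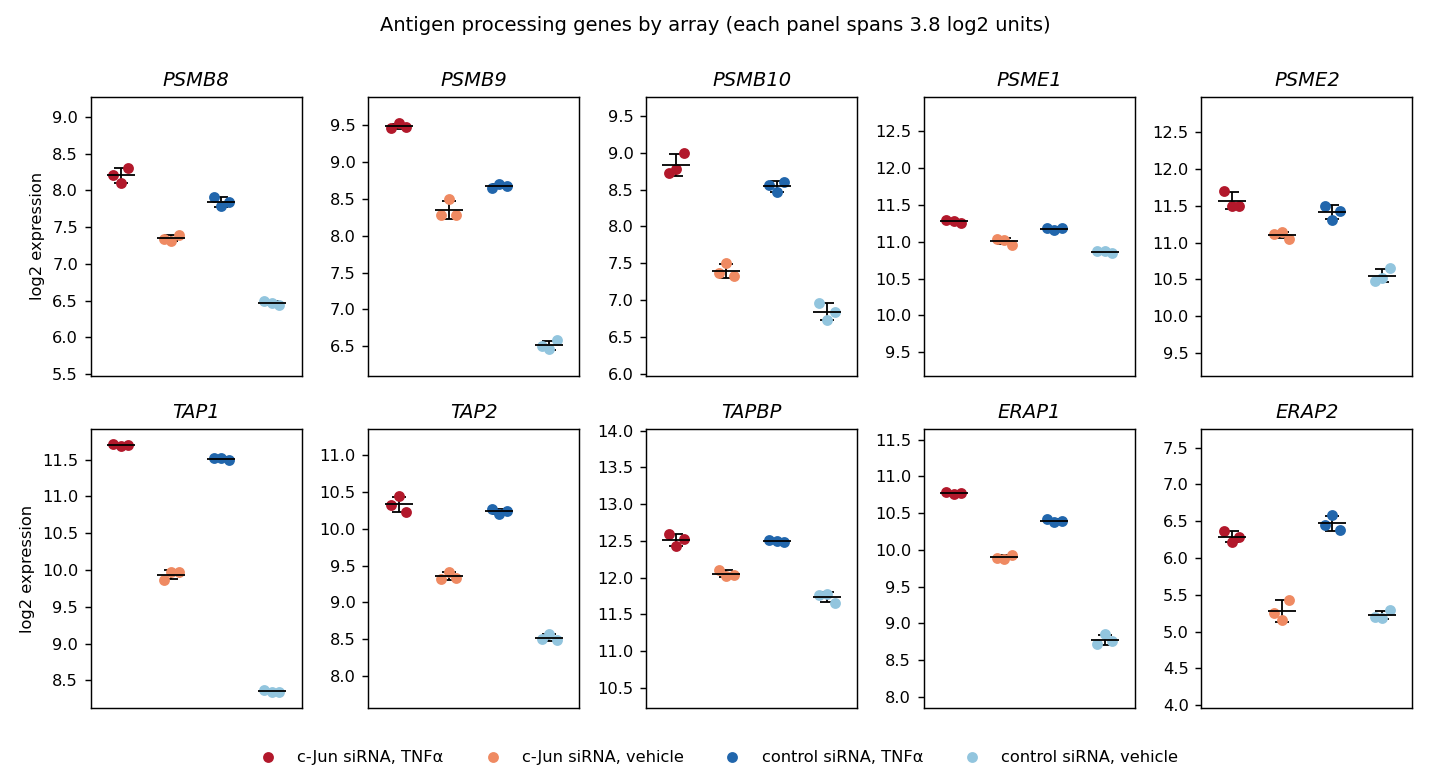
Log2 expression of the 10 genes in each array, by group; points are arrays, bars the mean and SD of 3, and all panels span the same height. In 9 genes the mean is highest with c-Jun siRNA and TNFα, then with control siRNA and TNFα, then with c-Jun siRNA and vehicle, and lowest with control siRNA and vehicle; ERAP2 is the exception.

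Counted together, all 10 genes were higher with TNFα in knocked-down cells at a limma adjusted p under 0.05, where 11.3% of all 17958 genes were called higher. Groups apart are counted in this paragraph in the higher direction only. That is, every TNFα array, or every c-Jun siRNA array for the knockdown, lay above those compared. All 10 genes had groups apart in this way, as did 15.3% of all genes. The median log2 fold change of the 10 was 0.92, against -0.02 over all genes. In control cells all 10 were again called higher with TNFα (13.8% of all genes) with groups apart (17.6%), and the median was 1.5 against -0.02. With the knockdown under TNFα 6 were called higher (14.1% of all genes), the same 6 had groups apart (19.1%), and the median was 0.17 against 0.00. The groups of ERAP2 were apart there in the lower direction, without a call. With the knockdown under vehicle 9 were called higher (14.4%) with groups apart (19%), and the median was 0.70 against -0.01. These comparisons share arrays, so their counts are not independent. The 10 genes were chosen with earlier results of these data known, so the shares over all genes, here and below, give scale only.

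The genes called under every comparison were PSMB8, PSMB9, PSMB10, PSME1, TAP1 and ERAP1, and 1.94% of all genes were called higher in all 4. In the same 6 genes the arrays of all 4 groups were apart in the order described for the means, against 1.07% of all genes. The order of the means alone held for 9 genes, against 5.82% of all genes.

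**Figure D4:**
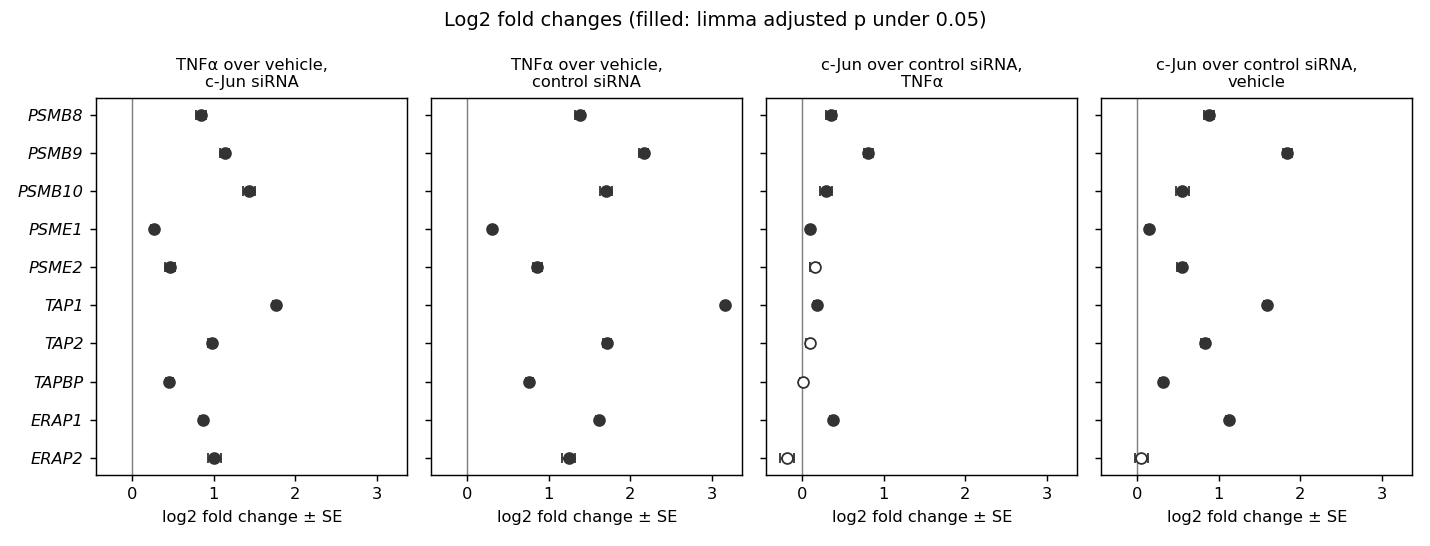
Log2 fold changes with standard errors for TNFα over vehicle under each siRNA and for c-Jun siRNA over control siRNA under each treatment; filled points have a limma adjusted p under 0.05. All 10 genes are filled in both TNFα panels, 6 in the c-Jun siRNA panel under TNFα and 9 in that under vehicle.

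The effects of TNFα and of the knockdown did not add up on the log2 scale. The interaction is the TNFα response with c-Jun siRNA minus that with control siRNA. It was below 0 in all 10 genes and called lower in 7, where 3.59% of all genes were called lower, with a median of -0.46 against 0.01 over all genes. It was -1.40 ± 0.047 for TAP1 (limma adjusted p = 1.68e-12), -1.03 ± 0.080 for PSMB9, -0.75 ± 0.052 for ERAP1 and -0.74 ± 0.068 for TAP2. Smaller values passed for PSMB8 (-0.53 ± 0.085), PSME2 (-0.39 ± 0.081) and TAPBP (-0.30 ± 0.055). Those of PSMB10 (-0.27 ± 0.11), ERAP2 (-0.23 ± 0.12) and PSME1 (-0.04 ± 0.042) did not pass. The PSME2 call ended when values under 4 or under 5 were raised to these floors (limma adjusted p = 0.0741 and 0.0763).

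On unlogged values most genes kept the sign of the interaction, though not all beyond the error. TNFα added 2335 ± 29.1 units of signal to TAP1 with c-Jun siRNA and 2596 ± 19.9 units with control siRNA (SE, n = 3 arrays a group). The vehicle levels beneath these increments were 981 ± 41.1 units with c-Jun siRNA and 326 ± 3.8 units with control siRNA (SD). For PSMB9 TNFα added 391 ± 19.7 units with c-Jun siRNA and 318 ± 4.28 units with control siRNA, the opposite direction to the log2 interaction. The increment was smaller with c-Jun siRNA in 8 of the 10 genes and larger in 2, PSMB9 and PSMB10. The difference for PSMB10 (30.7 ± 30.6 units, SE) was about the size of its error. Among the 8, those for PSMB8 (-9.95 ± 13.7 units) and PSME1 (-26.7 ± 43.9 units) were smaller than their errors. That for PSME2 was -380 ± 195 units. This description was added after seeing the data, and no test was run on it.

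**Figure D5:**
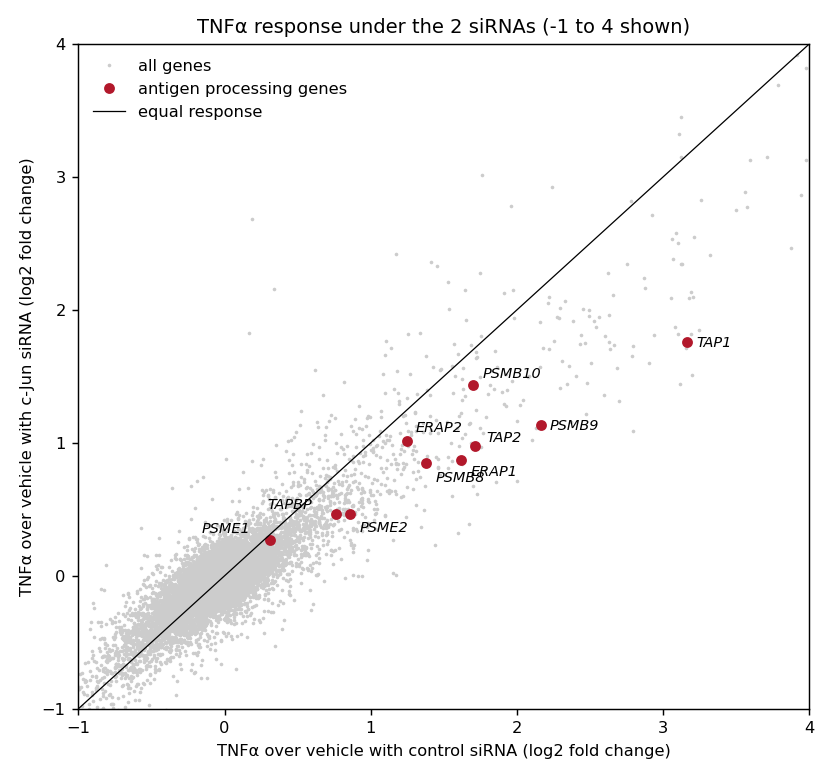
Log2 fold change with TNFα under c-Jun siRNA (y axis) against that under control siRNA (x axis), from separate arrays, for all genes in grey and the 10 antigen processing genes in red; the line marks equal responses. All 10 lie below the line, TAP1 farthest, at 1.76 with c-Jun siRNA and 3.16 with control siRNA.

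The array names hold position codes that were read here as plate columns (5, 7 and 9), an inference, over which the groups are spread unevenly. One fit with a mean for each group and column (5 residual degrees of freedom) gave differences within columns, but a lone array in an arm is there assumed to vary like the others. With the knockdown under TNFα the median of the 10 genes was 0.20 in column 7, from 1 c-Jun siRNA array against 2 control siRNA arrays. Of the 10 genes 5 were called higher there, against 9.63% of all genes. In column 9 the median was 0.14, from 2 c-Jun siRNA arrays, which are the pair read as 1 extract, against 1 control siRNA array, with 4 called higher (8.78% of all genes). PSMB10 and PSME1 passed in neither column. With the knockdown under vehicle the median was 0.71 in column 5, from 3 c-Jun siRNA arrays against 1 control siRNA array, with 9 called higher (9.88%). The TNFα response in control cells had a median of 1.47 in column 7, from 2 arrays against 2, with 10 called higher (12.2%). No column holds both treatments of c-Jun siRNA.

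With the column as a block in the model, 10 genes were called higher with TNFα in knocked-down cells, against 5.85% of all genes, and 10 in control cells, against 12.6%. The knockdown gave 6 called higher under TNFα (13.3% of all genes) and 9 under vehicle (9.74%), and the interaction 7 called lower (2.09%). The first and the last of these rest on the model, since the arrays of c-Jun siRNA with vehicle lie in a column without c-Jun siRNA TNFα arrays.

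The rest of the pathway was read from lists. Over all genes, 11.3% were called higher with TNFα in knocked-down cells and 13.8% in control cells. With the knockdown 14.1% were called higher under TNFα and 14.4% under vehicle. All 5 measured genes of the class I chains rose with TNFα under either siRNA and with the knockdown under vehicle, with a median of 1.22 for TNFα in control cells against -0.02 over all genes. HLA-B had log2 fold changes of 1.06 with TNFα in knocked-down cells, 1.88 with TNFα in control cells and 0.92 with the knockdown under vehicle. B2M, the light chain, had 0.48, 0.89 and 0.39 in the same comparisons. With the knockdown under TNFα 3 of 5 were higher, HLA-G by 0.21, HLA-C by 0.19 and HLA-B by 0.11. The interaction was called lower in 4 of 5, HLA-B at -0.82. HLA genes are close copies of each other, so these probe sets may share signal.

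Of 4 general chaperones of the endoplasmic reticulum 3 were called higher with the knockdown and 0 with TNFα. With TNFα limma called 0 of 4 under either siRNA, while unadjusted values under 0.05 were found for PDIA3 in knocked-down cells (-0.08) and for HSPA5 in control cells (-0.07). With the knockdown 3 of 4 were higher under both treatments, against 14.1% of all genes under TNFα and 14.4% under vehicle. The remaining gene, CANX, was not called at 0.08 under TNFα and 0.07 under vehicle (limma adjusted p = 0.0947 and 0.152). The disulphide isomerase PDIA3 was higher by 0.26 under TNFα and 0.27 under vehicle, HSPA5 by 0.25 and 0.20, and calreticulin, encoded by CALR, by 0.10 and 0.15. The medians of the list were 0.17 under TNFα and 0.18 under vehicle, against 0.00 and -0.01 over all genes.

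Among the 11 other subunits of the proteasome core 6 rose with TNFα in control cells and 0 fell, with a median of 0.15. The largest rises were those of the outer-ring subunits PSMA6 at 0.51 ± 0.060, PSMA5 at 0.42 ± 0.061 and PSMA3 at 0.35 ± 0.040. The knockdown under vehicle raised 2 of the 11, PSMB2 by 0.27 and PSMA1 by 0.15. Of 14 subunits of the 19S regulator 2 rose and 1 fell with TNFα in control cells, and all 14 lay between -0.10 and 0.12. Of 8 other activators, inhibitors and assembly factors 1 rose, PSME3, which encodes the nuclear PA28 gamma cap, by 0.23. These rises of 2 of 11, 2 of 14 and 1 of 8 lie near the shares over all genes. Those shares were 14.4% for the knockdown under vehicle and 13.8% for TNFα in control cells.

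Of 7 other peptidases 1 rose and 3 fell with TNFα in control cells. Over all genes 13.8% were called higher there, and 61.3% of the 6416 calls were lower. The leucine aminopeptidase LAP3 rose by 0.40 in knocked-down cells and 0.56 in control cells. THOP1, a cytosolic enzyme that degrades peptides, had -0.29 and -0.26, and the puromycin-sensitive aminopeptidase NPEPPS -0.20 and -0.31. With the knockdown under vehicle 4 of the 7 rose (14.4% of all genes), the insulin-degrading enzyme IDE by 0.42 and THOP1 by 0.28.

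Genes of transcriptional regulators of the pathway were mixed. Of 10 measured, 7 rose (13.8% of all genes) and 1 fell with TNFα in control cells, and 4 rose with the knockdown under vehicle (14.4%). IRF1 averaged 11.70 with c-Jun siRNA and TNFα, 9.59 with c-Jun siRNA and vehicle, 11.58 with control siRNA and TNFα and 8.92 with control siRNA and vehicle. TNFα raised it by 2.11 ± 0.048 in knocked-down cells and 2.66 ± 0.048 in control cells, and the knockdown raised it by 0.67 ± 0.048 under vehicle, while its 0.12 under TNFα did not pass (limma adjusted p = 0.0664). The related IRF2 rose by 0.59 ± 0.034 with the knockdown under vehicle, RFX5, which binds class I promoters, by 0.34 and the NF-kB subunit gene NFKB1 by 0.27. NLRC5, the class I transactivator, rose with TNFα by 1.37 ± 0.080 in knocked-down cells and 1.80 ± 0.080 in control cells. With the knockdown it was lower under TNFα (-0.26 ± 0.080) and its 0.18 under vehicle did not pass (limma adjusted p = 0.119). NFKB1 (-0.26) and RELA (-0.16), another NF-kB subunit gene, were likewise lower with the knockdown under TNFα. The part of these regulators in the results was not tested.

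Some markers of cell type moved with the knockdown or with TNFα as well. Over all genes, the knockdown gave 14.1% called higher under TNFα and 14.4% under vehicle. Of the 5116 and 5183 calls there in either direction, 50.5% and 50.2% were lower. TNFα gave 11.3% called higher in knocked-down cells and 13.8% in control cells. Of the 5320 and 6416 calls there, 61.7% and 61.3% were lower. Of 6 endothelial markers ROBO4 and TEK were higher with the knockdown under both treatments, ROBO4 by 0.65 under TNFα and 1.05 under vehicle and TEK by 0.61 and 0.93. ROBO4 also rose with TNFα, by 0.58 in knocked-down cells and 0.98 in control cells, and TEK by 0.28 in control cells, while PECAM1, CDH5, VWF and KDR averaged 3.8 to 4.67, below every array median. The mean log2 level of the 6 ranged over 5.30 to 5.32 with c-Jun siRNA and TNFα, 5.19 to 5.27 with c-Jun siRNA and vehicle, 5.08 to 5.10 with control siRNA and TNFα and 4.86 to 4.99 with control siRNA and vehicle. Of the 4 mesenchymal markers 1 was called lower with the knockdown under TNFα, FN1 at -0.60, and all 4 under vehicle, FN1 at -0.45 and VIM at -0.11. With TNFα in control cells FN1 was higher (0.36), and ZEB1 (-0.38) and CDH2 (-0.14) were lower. In knocked-down cells FN1 (0.20) and VIM (0.11) were higher with TNFα and ZEB1 lower (-0.15). Of the 6 epithelial and luminal markers CDH1 was higher with the knockdown under both treatments (0.95 under TNFα and 0.55 under vehicle), and the other 5 were called under neither. This 1 of 6 lies near the shares over all genes. With TNFα in knocked-down cells CDH1 was higher (0.48) and ERBB2 lower (-0.17). Of the leukocyte markers ITGAM rose with TNFα, by 0.69 in knocked-down cells and 0.78 in control cells, CD14 was lower with TNFα in control cells (-0.30), and CD68 was higher with the knockdown under vehicle (0.11). The mean of the 8 leukocyte markers ranged over 5.16 to 5.24 with c-Jun siRNA and TNFα, 5.06 to 5.12 with c-Jun siRNA and vehicle, 5.11 to 5.20 with control siRNA and TNFα and 5.07 to 5.13 with control siRNA and vehicle. The part of these lists in the results was not tested.

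The genes outside the 10 with the most similar profiles were found by the root mean square difference of the 4 group means, each gene centred on its own average. Nearest to TAP1 were the chemokine CCL2 (0.10 log2 units), the transcription factor NFE2L3 (0.10) and the NF-kB inhibitor NFKBIA (0.13). For TAP2 they were the TNF family member CD70 (0.045), HLA-B (0.070) and the interleukin-2 receptor chain IL2RA (0.072). PSMB8 and ERAP1 shared IER3 (0.045 and 0.12) and TRIM14 (0.050 and 0.12) as their nearest genes outside the 10, and ERAP1 lay closer still to PSMB8 itself (0.11). PSMB10 lay nearest to TNFRSF11B, which encodes osteoprotegerin (0.041), and PSME2 to ACSS1 and KLF10 (0.037 each). The nearest to ERAP2 were the ubiquitin ligase TRIM25 (0.033), IFI35 (0.050) and SLC25A28 (0.053). PSMB9 had the most distant neighbours outside the 10, with the kinase NUAK2 first (0.22). PSME1 and TAPBP, which moved least among the genes called under vehicle, had neighbours at 0.014 (RNF44) and 0.016 (APBA3).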

How the data were processed

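Per the labels, biotin-labelled sense-strand cDNA was hybridised to Affymetrix arrays, and Affymetrix Expression Console 1.1 and PLIER are named in the submitters' processing notes without their roles. The authors deposited 1 value per probe set and array, used here as log2 expression. The base was inferred from the range of 2.27 to 13.97, and a shared scale from array quartiles that lie within 0.061 of each other. No further normalisation was applied. The genome build of the array annotation is not given in the sources used here.

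Of 33297 probe sets, 19181 have 1 symbol, 2055 several and 12061 none here. Of the first, 19143 were matched to RefSeq by Entrez identifier. They gave 17958 genes, by the highest 12-array mean for the 895 genes with several probe sets. Group means were fitted to all 12 arrays with limma 3.58.1 in R 4.3.3 (trend in variance, 8 residual and 9.29 prior degrees of freedom). Tests were two-sided with Benjamini-Hochberg adjustment over all genes, and a gene was called at an adjusted p under 0.05. Exact permutation tests covered the subunit pairs. The fit was tested on simulated data. Promoter windows came from RefSeq (GRCh38.p14), and all 10 genes matched by symbol. Tables and plots used Python 3.11.15, pandas 2.3.3 and matplotlib 3.10.9.

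All 10 genes are named, with up to 4 called genes per other list and comparison and the 3 nearest genes of each. Not all are printed. The members and lists were chosen with earlier results of these data known. Some list entries had no single-symbol probe set here and are not reported. Replicate numbers did not pair the arrays: deviations of same-numbered arrays correlated at -0.059 to 0.088 in 18 pairs.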

Additional observations from a re-analysis of the deposited data

Results flagged for a closer look

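The TNFα response differed between the siRNAs in 7 of the 10 genes, by the limma interaction term (TNFα effect with c-Jun siRNA minus that with control siRNA, log2). All 7 were called lower, as were 3.59% of all genes. The values were -1.40 for TAP1, -1.03 for PSMB9, -0.75 for ERAP1, -0.74 for TAP2, -0.53 for PSMB8, -0.39 for PSME2 and -0.30 for TAPBP. Groups of 3 arrays are too small for a check of single outlying arrays.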

How the results depend on the processing

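Of 1485 recomputed single-gene values, 1438 kept their direction and their side of the threshold, 25 lost a call, 14 gained one and 8 changed sign. The sign changes were in 2 uncalled differences: TAPBP for c-Jun siRNA with TNFα (-0.000556 with quantile normalisation, -0.0075 with the position column as a fixed block, -0.0042 with the presumed second run averaged, -0.060 within column 7, and -0.021 to 0.058 with arrays left out) and ERAP2 for c-Jun siRNA with vehicle (-0.012 both with that block and within column 5, and -0.022 to 0.12 with arrays left out). Requiring 1.5-fold left 1 of the genes for c-Jun siRNA with TNFα, 5 with vehicle and 4 for the interaction, and over all genes 613, 665 and 207, with 914 and 1167 for TNFα under c-Jun and control siRNA, against 5116, 5183, 983, 5320 and 6416 without that demand. An adjusted p under 0.01 left 553 interactions. The fixed block gave 3448 genes for c-Jun siRNA with vehicle, 2376 for TNFα with c-Jun siRNA and 531 interactions, and the fit within column 9 gave 3182 for c-Jun siRNA with TNFα.

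Medians of the 10 genes moved by more than their spread between arrays (0.026) as follows. With arrays centred they were 0.97 and 1.53 for TNFα under c-Jun and control siRNA. Centring also changed the share of lower calls over all genes from 61.7% to 45.6% for TNFα with c-Jun siRNA and from 65.6% to 54.9% for the interaction. With the dimmest 50% left out, which drops ERAP2, they were 0.87 and 1.62 for these, 0.83 for c-Jun siRNA with vehicle and -0.53 for the interaction. With the fixed block they were 0.89, 1.46 and -0.50 (interaction). Within column 7 the TNFα median with control siRNA was 1.47, as with only those arrays, and c-Jun siRNA with TNFα gave 0.20 there and 0.14 in column 9. With arrays left out the medians ran from 0.14 to 0.19 for c-Jun siRNA with TNFα, 0.67 to 0.72 with vehicle and -0.50 to -0.42 for the interaction. In the first, 5 to 8 of the 10 genes were called, and 4440 to 5190 of all 17958 genes in either direction.

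The replicate block, which the pairing check did not back, added PSME2 to the calls for c-Jun siRNA with TNFα (0.16, limma adjusted p = 0.0451). The other calls on the 10 genes did not change in any comparison. Genes outside the 10, other than the constitutive subunits in the pairs, were not recomputed one by one, so small values of the other lists rest on the deposited scale. The causes of the changes in this section were not tested. c-Jun siRNA TNFα replicate 3 has an array name that reads as a second run of replicate 1. Their difference had an SD over genes of 0.121, the lowest in that group, against 0.142 and 0.133 for its other pairs. All replicate pairs ranged from 0.119 to 0.142. Whether these arrays share 1 extract was not tested.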
